A study of Homo sapiens with 13 samples.

Results

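The genes described here are 10 output genes of the transcriptional co-activators YAP and TAZ, namely *CYR61*, *CTGF*, *F3*, *CRIM1*, *AMOTL1*, *AMOTL2*, *AJUBA*, *PTPN14*, *NUAK2* and *ANKRD1*. They were picked by symbol, with no measured value in the rule, though earlier results of these data were known when they were chosen. They are 10 of the 56831 genes in each of the H82 and H146 expression tables. The tables keep the older symbols *CYR61* and *CTGF* for the genes now named *CCN1* and *CCN2*.

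YAP (encoded by *YAP1*) and TAZ (encoded by *WWTR1*) do not bind DNA themselves and reach their target genes through the TEAD transcription factors. In the Hippo pathway the MST kinases act on the LATS kinases, and LATS phosphorylates both co-activators and keeps them out of the nucleus. Several of the target genes encode proteins that act back on this circuit, such as the angiomotin family and PTPN14, which hold YAP in the cytoplasm or at cell junctions. Small cell lung cancer (SCLC) is mostly a neuroendocrine tumor with little YAP, and a smaller non-neuroendocrine fraction of it expresses the co-activator.

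H82 and H146 are established human SCLC lines, assigned to the SCLC-N and SCLC-A subtypes, respectively. Both were wild-type cells, carrying no engineered allele, and were grown in RPMI medium with fetal bovine serum. Cells were either left untreated or given FHD-286, a small-molecule inhibitor of SMARCA2 and SMARCA4, the ATPases of the SWI/SNF chromatin remodeler, at 100 nM over 14 days. RNA sequencing gave 3 untreated and 3 treated libraries of H82, and 3 untreated and 4 treated libraries of H146, and the comparison asks how the output genes stand after the ATPases are blocked. Whether libraries of a group came from separate cultures is not given in the sources used here, so *p* values measure the spread between libraries, which may be technical. Each group is 1 cell line under 1 condition, and fewer cells that make an RNA cannot be told apart from less of that RNA per cell.

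Levels are in TPM, a measure per unit of transcript length in which every library has the same total of 1000000. Read depth is unknown from these values. With FHD-286 the number of genes at 1 TPM or more went from at least 21227 to at most 16633 in H82, and from at most 17965 to at least 18778 in H146. The mitochondrial share of the TPM was 22.1% or more without and 14.9% or less with the drug in H82. The treated H82 libraries were not alike. Replicate 1 correlated at 0.946 and 0.952 over genes with replicates 2 and 3, which correlated at 0.978 with each other, and without replicate 1 the share of all genes called in H82 was 69.7% in place of 58.6%. Replicate 2 stood apart in another measure. A set of 241 genes that were at 20 TPM or more in all untreated H146 libraries and under 0.5 TPM in all untreated H82 libraries summed to 1184 TPM there, or 5.35% of their untreated H146 level, against 285 and 149 TPM in treated replicates 1 and 3 and at most 22.9 TPM in untreated H82. Whether that library holds material of H146 was not tested. Values that either library moves are also given without it. In H146, treated replicates 3 and 4 were more alike (correlation 0.988 over genes) than any other treated pair of that line (at most 0.969).

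The stretches upstream of the start sites show where TEAD could be read in DNA letters, and they are printed for the members whose upstream match lies outside annotated exons. The search used the core letters GGAATG on both strands in the 250 bases before each RefSeq start site (GRCh38.p14), and 8 of the 10 members had an entry. A match was present upstream of 6 members (*CTGF*, *ANKRD1*, *NUAK2*, *PTPN14*, *AJUBA* and *AMOTL2*), in 6 of 10 windows, as some members have more than 1 start site. Of all 35116 promoters in the table, 11.9% held these letters. The sequences run 5′ to 3′ on the strand of the gene, and capitals mark the match, which reads CATTCC where it lies on the other strand.
CTGF, chr6:131951435-131951568, minus strand: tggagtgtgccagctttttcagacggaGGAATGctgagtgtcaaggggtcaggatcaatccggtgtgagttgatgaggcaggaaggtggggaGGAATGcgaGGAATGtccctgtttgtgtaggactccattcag
ANKRD1, chr10:90921183-90921334, minus strand: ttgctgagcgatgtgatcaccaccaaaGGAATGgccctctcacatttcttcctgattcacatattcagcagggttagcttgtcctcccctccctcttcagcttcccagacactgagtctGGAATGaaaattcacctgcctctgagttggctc
NUAK2, chr1:205321910-205321969, minus strand: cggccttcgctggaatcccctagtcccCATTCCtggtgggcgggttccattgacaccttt
NUAK2, chr1:205321746-205321790, minus strand: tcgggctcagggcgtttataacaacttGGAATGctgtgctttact
PTPN14, chr1:214551770-214551829, minus strand: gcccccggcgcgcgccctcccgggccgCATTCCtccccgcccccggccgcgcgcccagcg

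*CTGF* had 3 matches, at -169, -104 and -95 from the start site, *ANKRD1* had 2, at -220 and -128, and *NUAK2* had 2, at -197 and -18. The single match of *PTPN14* was at -200. The AP-1 letters TGANTCA were found upstream of *ANKRD1* and *F3* (6.57% of all promoters), TATAAA upstream of *CTGF*, *F3* and *NUAK2* (10.7%), and the CArG box bound by SRF upstream of no member with an entry (1.16%). No match overlapped a match of another motif, and a match describes the sequence only, since binding was not analysed here.

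Treated and untreated libraries were compared within each line with limma on log2(TPM + 1). Genes entered the test where 3 or more libraries of a line reached 1 TPM, and Benjamini-Hochberg adjustment of *p* covered every gene that entered, with a threshold of 0.05. A log2 fold change on this scale understates the change of low genes. In H82, 8 members passed the filter, of which *AJUBA* and *CYR61* rose and *AMOTL2*, *CRIM1* and *AMOTL1* fell with FHD-286. *AJUBA*, under 1 TPM in all untreated H82 libraries, and *F3*, under it in all but 1 of them, entered the H82 test through their treated libraries. These 5 calls among 8 members stand beside 58.6% of all genes tested, with 13.1% higher and 45.5% lower. In H146, 8 members were tested, *CYR61* and *F3* with fewer than 3 untreated libraries at 1 TPM, and *CRIM1*, *AJUBA* and *AMOTL2* rose and *NUAK2* fell, beside 47.9% of all genes called, with 32.5% higher and 15.5% lower. *AJUBA* was the only member called higher in both lines, a pattern shown by 4.83% of the 15679 genes tested in both. *AMOTL2* and *CRIM1* were called lower in H82 and higher in H146, as were 13.2% of those genes. No member was lower in both lines (4.43% of those genes) or higher in H82 and lower in H146 (2.30%). The median log2 fold change of the tested members was 0.08 in H82 and 0.74 in H146, against -0.56 and 0.25 over all genes tested.

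**Figure D1:**
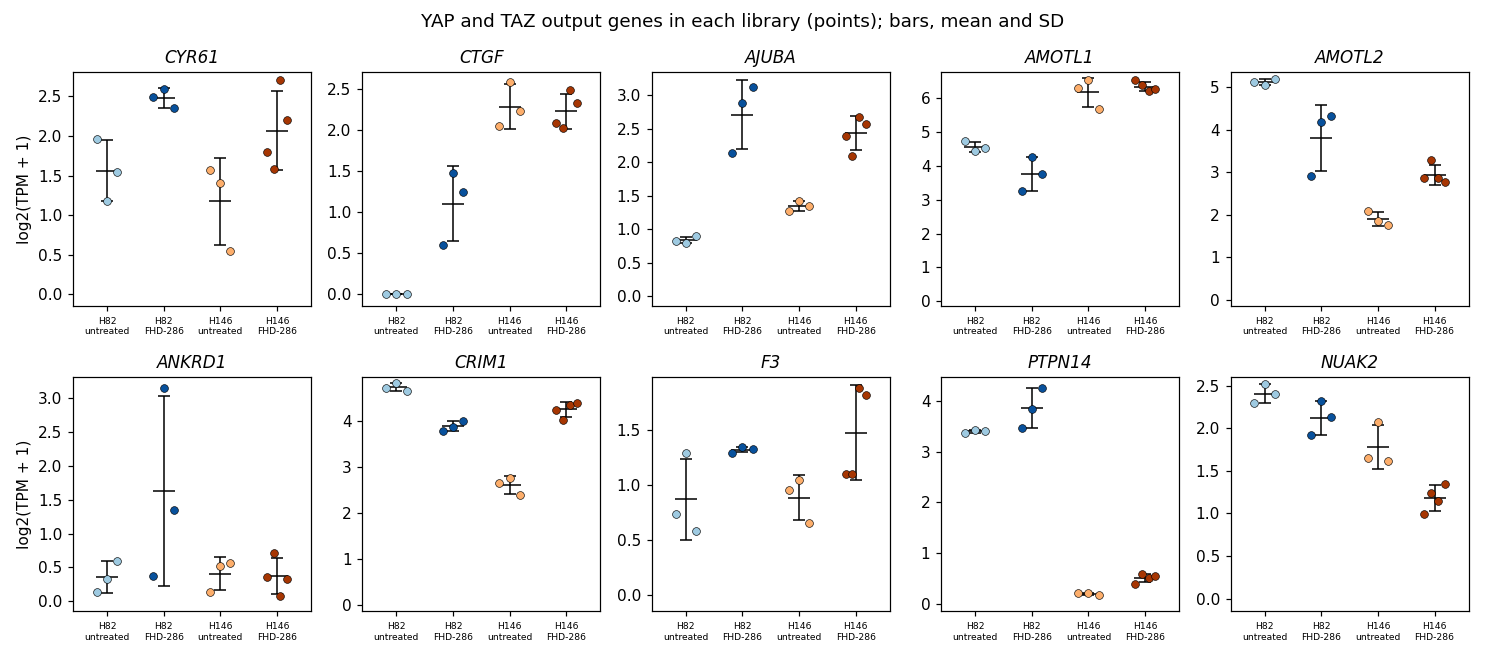
Level of each of the 10 genes in every library, as log2(TPM + 1) on the vertical axis, with a panel per gene and a column of points per group (H82 untreated, H82 with FHD-286, H146 untreated, H146 with FHD-286); bars are the mean and SD. The treated points of *AJUBA* lie above the untreated ones in both lines, while those of *CRIM1* and *AMOTL2* lie below them in H82 and above them in H146.

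The secreted products come first. *CYR61* (chr1:85580761-85584589, plus strand, hg38) encodes a matricellular protein that binds integrins and is among the most used readouts of YAP. In H82 it stood at 2.89, 1.27 and 1.92 TPM in untreated replicates 1 to 3 and at 4.62, 5.03 and 4.10 TPM in the treated ones. All treated H82 libraries were above all untreated ones, and the mean went from 2.03 ± 0.817 to 4.59 ± 0.465 TPM (SD, n = 3 and 3), or 2.26-fold. The log2 fold change was 0.92 (standard error 0.25, limma adjusted *p* = 0.0164). Without untreated replicate 3 it was 0.91 and no longer past the threshold (limma adjusted *p* = 0.0543), and without treated replicate 2 it was 0.86 (limma adjusted *p* = 0.0497). In H146 the untreated libraries held 1.97, 1.64 and 0.462 TPM and the treated ones 2.46, 2.00, 5.51 and 3.59 TPM. The groups again did not overlap, by a narrow margin between untreated replicate 1 and treated replicate 2, and the highest values were those of treated replicates 3 and 4. In H146 the log2 fold change was 0.90 (standard error 0.34) and missed the threshold (limma adjusted *p* = 0.0557), and without treated replicate 2 it was 1.06 (limma adjusted *p* = 0.0233). The difference between the lines was -0.02 with a 95% interval of -1.0 to 0.96 (limma adjusted *p* = 0.972). That interval reached about as far to each side of 0 as the response of either line.

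*CTGF* (chr6:131948176-131951372, minus strand) encodes a second matricellular protein, and its promoter is the one with 3 TEAD matches above. Exons of *LINC01013* on the other strand share bases with it, and whether the counting used strand is not given in the sources used here. It was listed at 0 in all 3 untreated H82 libraries and at 0.511, 1.78 and 1.36 TPM in the treated ones. All treated H82 libraries were thus above all untreated ones, at levels too low for the filter. The exact permutation test of mean log2(TPM + 1), two-sided, gave *p* = 0.1, the smallest value that 3 against 3 libraries can give, and the difference of 1.10 on this scale was 0.92 without treated replicate 2. No fold is stated against a group at 0. H146 already had *CTGF* without the drug, at 3.14, 5.00 and 3.70 TPM, and it stood at 3.24, 3.10, 4.63 and 4.02 TPM with it. Those groups overlapped throughout, and the log2 fold change of -0.05 (95% interval -0.51 to 0.40) missed the threshold (limma adjusted *p* = 0.841).

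*F3* (chr1:94529173-94541759, minus strand) encodes tissue factor, the membrane receptor that starts blood coagulation. In H82 its levels were 0.667, 1.44 and 0.498 TPM untreated and 1.45, 1.54 and 1.51 TPM treated, so untreated replicate 2 came just under the lowest treated library. In H146 they were 0.940, 1.07 and 0.577 TPM untreated and 1.15, 1.15, 2.69 and 2.54 TPM treated, with treated replicates 3 and 4 apart from the other two treated libraries. Groups did not overlap in either line. The log2 fold change was 0.45 in H82 (limma adjusted *p* = 0.137) and, for H146, 0.59 (limma adjusted *p* = 0.0919), neither of them past the threshold. Leaving out untreated replicate 2 in H82 gave 0.66 (limma adjusted *p* = 0.0214), and leaving out treated replicate 2 in H146 gave 0.72 (limma adjusted *p* = 0.0403).

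*CRIM1* (chr2:36355778-36551135, plus strand) encodes a transmembrane protein with cysteine-rich repeats that binds bone morphogenetic proteins. It was at 25.3, 27.5 and 24.2 TPM in untreated H82 and at 12.8, 13.7 and 15.01 TPM in treated H82. The same gene in H146 went the other way, from 5.29, 5.81 and 4.20 TPM to 17.9, 15.3, 19.3 and 20.2 TPM. Groups were far apart relative to their spread in both lines, with means of 25.7 ± 1.71 and 13.8 ± 1.10 TPM in H82 (SD, n = 3 and 3) and of 5.10 ± 0.817 and 18.2 ± 2.15 TPM in H146 (SD, n = 3 and 4). On the log2 scale *CRIM1* fell by 0.85 in H82 (standard error 0.14, limma adjusted *p* = 0.00234) and rose by 1.65 in H146 (standard error 0.16, limma adjusted *p* = 0.000148). Both calls held without any single library. An unnamed gene on the other strand shares exon bases with it.

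The angiomotin-like genes encode scaffold proteins of cell junctions and actin that bind YAP and hold it outside the nucleus. *AMOTL2* (chr3:134355347-134375479, minus strand) had the highest mean of the 10 genes in untreated H82. Its levels in H82 were 33.8, 31.9 and 35.2 TPM untreated and 6.53, 17.0 and 19.1 TPM treated. In H146 they were 3.23, 2.63 and 2.41 TPM untreated and 6.22, 8.77, 6.27 and 5.79 TPM treated. Every treated library was below the untreated ones in H82 and above them in H146. On the log2 scale *AMOTL2* fell by 1.31 in H82 (standard error 0.36, limma adjusted *p* = 0.0179) and rose by 1.04 in H146 (standard error 0.18, limma adjusted *p* = 0.0025). The H82 call was lost when any of the untreated libraries was left out, with limma adjusted *p* values of 0.056, 0.0551 and 0.0589 without replicates 1, 2 and 3, whereas the log2 fold change was -0.87 without treated replicate 1, the lowest library, and -1.49 without treated replicate 2. A ribosomal protein pseudogene, *RPL39P5*, shares exon bases with it on the same strand.

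*AMOTL1* (chr11:94706431-94876748, plus strand) was the highest of the 10 genes in H146, with or without the drug. It was at 25.5, 20.6 and 22.2 TPM in untreated H82 and at 8.62, 18.4 and 12.7 TPM in treated H82. In H146 its levels were 78.5, 91.5 and 50.4 TPM untreated and 91.3, 82.8, 72.7 and 76.5 TPM treated. Groups were separate in H82, where it fell by 0.79 on the log2 scale (standard error 0.27, limma adjusted *p* = 0.0362), and overlapped in H146, where the log2 fold change was 0.17 (95% interval -0.28 to 0.63, limma adjusted *p* = 0.496). The H82 call was lost without untreated replicate 1, 2 or 3 or treated replicate 3 (limma adjusted *p* = 0.12, 0.0744, 0.0911 and 0.0799), and the value was -0.54 without treated replicate 1 (limma adjusted *p* = 0.037) and -1.05 without treated replicate 2 (limma adjusted *p* = 0.0107). An unnamed gene on the other strand shares exon bases with it.

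*AJUBA* (chr14:22971177-22982551, minus strand) encodes a LIM-domain protein of cell junctions that binds LATS kinases and limits their action on YAP. In H82 it went from 0.770, 0.737 and 0.856 TPM in the untreated libraries to 3.38, 6.38 and 7.66 TPM in the treated ones. In H146 it went from 1.40, 1.67 and 1.55 TPM to 4.26, 3.24, 5.35 and 4.96 TPM. All treated libraries were above all untreated ones in both lines, and means of TPM were 7.37-fold higher in H82 and 2.89-fold higher in H146. An unnamed gene on the same strand shares exon bases with *AJUBA*. The log2 fold changes were 1.87 in H82 (standard error 0.28, limma adjusted *p* = 0.00154) and 1.09 in H146 (standard error 0.19, limma adjusted *p* = 0.00223). Both calls held without any single library, with ranges of 1.67 to 2.16 and 1.01 to 1.20.

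*PTPN14* (chr1:214348700-214552449, minus strand) encodes a tyrosine phosphatase that binds YAP and restrains it. Its levels in H82 were 9.28, 9.76 and 9.64 TPM untreated and 10.0, 13.4 and 18.3 TPM treated. In H146 they were 0.154, 0.159 and 0.126 TPM untreated and 0.310, 0.505, 0.423 and 0.464 TPM treated. Treated libraries were above untreated ones in both lines. In H82 the log2 fold change was 0.46 with a standard error of 0.23 and missed the threshold (limma adjusted *p* = 0.122), and it became 0.66 without treated replicate 1 (limma adjusted *p* = 0.0118). In H146 *PTPN14* was below the filter, and the two-sided exact permutation test gave *p* = 0.0286, the smallest that 3 against 4 libraries can give. An exon of the pseudogene *KRT18P12* on the other strand and one of an unnamed gene on the same strand share bases with it.

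*NUAK2* (chr1:205302063-205321745, minus strand) encodes a kinase of the AMPK family that acts on actomyosin. It was at 3.90, 4.75 and 4.28 TPM in untreated H82 and at 2.78, 3.99 and 3.37 TPM in treated H82, and the groups overlapped. In H146 its levels went from 2.13, 3.21 and 2.06 TPM to 0.990, 1.36, 1.22 and 1.54 TPM, with all treated libraries below the untreated ones. The log2 fold change was -0.28 in H82 (limma adjusted *p* = 0.256), and *NUAK2* fell by 0.60 in H146 (standard error 0.19, limma adjusted *p* = 0.0315). That call was lost without untreated replicate 1 or 2 or treated replicate 1 or 3 (limma adjusted *p* = 0.0608, 0.123, 0.0727 and 0.0681).

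*ANKRD1* (chr10:90912096-90921087, minus strand) encodes an ankyrin-repeat protein of the nucleus and the sarcomere that is induced by stress in muscle. Its levels were 0.0969, 0.262 and 0.517 TPM in untreated H82 and 0.302, 7.92 and 1.55 TPM in treated H82. The value of 7.92 TPM was that of treated replicate 2, the library with the highest level of H146-only genes, and *ANKRD1* was at most 0.646 TPM in the H146 libraries. It did not reach the filter, and the difference in mean log2(TPM + 1) was 1.27 with that library and 0.51 without it (two-sided exact permutation *p* = 0.2 and 0.3), and 1.90 without treated replicate 1. In H146 it was at 0.0975, 0.436 and 0.485 TPM untreated and 0.278, 0.646, 0.0542 and 0.253 TPM treated. The groups overlapped in both lines (two-sided exact permutation *p* = 0.8286 in H146).

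Of the tested members whose groups did not overlap, 4 were higher and 3 were lower with the drug in H82, where 16.4% of all tested genes were wholly above and 51.4% wholly below. In H146, 5 were higher and 1 was lower, where 35.7% of all tested genes were wholly above and 17.3% wholly below.

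Whether a gene answered the drug differently in the lines was tested with an interaction term, fitted with limma to the 13 libraries together. Of 9 members tested, 4 differed, beside 59.3% of all 24374 genes tested. In 3 of them the response was higher in H146 and in 1 it was lower, beside 46.0% and 13.3% of all genes. The difference, H146 minus H82, was 2.50 for *CRIM1* (standard error 0.20, limma adjusted *p* = 1.83e-06) and 2.35 for *AMOTL2* (standard error 0.41, limma adjusted *p* = 0.000414). For *CTGF* it was -1.16 (limma adjusted *p* = 0.00845). These 3 differences were past the threshold without any single library. *CTGF* entered this test through H146, where it is high, and its H82 side, from libraries at 0, was not tested in the H82 fit. For *AMOTL1* it was 0.97 (limma adjusted *p* = 0.0282), and it was 0.89, 0.72, 0.72 and 0.91 without H82 untreated replicate 1, H82 treated replicate 1, H146 untreated replicate 3 and H146 treated replicate 1, none of them past the threshold (limma adjusted *p* = 0.0658, 0.059, 0.0748 and 0.0517). *AJUBA*, at -0.79 with a 95% interval of -1.50 to -0.07, was not past the threshold after adjustment (limma adjusted *p* = 0.057), and without H82 treated replicate 1 it was -1.08 (limma adjusted *p* = 0.00337). The other 4 members had differences of -0.31 (*NUAK2*), -0.15 (*PTPN14*), 0.14 (*F3*) and -0.02 (*CYR61*), with intervals that spanned 0. *PTPN14* entered this test through H82, where it is high, and was below the filter in H146.

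**Figure D2:**
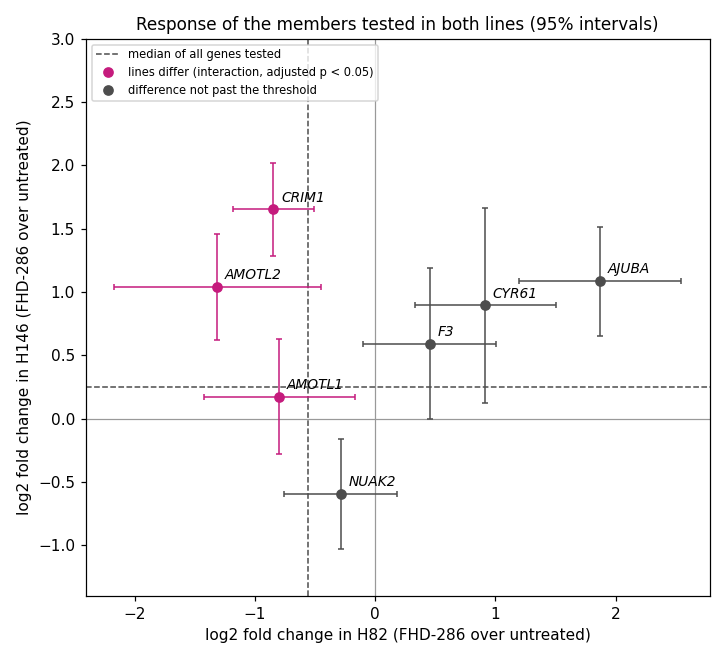
Log2 fold change with FHD-286 in H82 (horizontal) against that in H146 (vertical) for the 7 members tested in both lines, with 95% intervals as bars, grey lines at 0 and dashed lines at the median of all genes tested (-0.56 in H82 and 0.25 in H146). *CRIM1*, *AMOTL2* and *AMOTL1*, colored for a difference between the lines past the threshold, lie left of 0 in H82, and *AJUBA* and *CYR61* lie above 0 in both lines.

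TPM carries no scaling between libraries beyond the common sum, and the median of all genes moved when libraries were scaled by the median of ratios, to -0.14 in H82 and -0.02 in H146. The share of all tested genes that were higher or lower became 24.2% and 32.9% in H82, and 21.3% and 25.1% in H146. The members' calls in H82 changed with it from 2 higher and 3 lower to 4 higher and 1 lower. *PTPN14* (0.91, limma adjusted *p* = 0.00884) and *F3* (0.71, limma adjusted *p* = 0.0302) were then higher. *AMOTL2* (-0.85, limma adjusted *p* = 0.0728) and *AMOTL1* (-0.33, limma adjusted *p* = 0.292) were no longer past the threshold, and *NUAK2* changed sign, to 0.10. *AJUBA*, *CYR61* and *CRIM1* kept their direction and call in H82 under this scaling, at 2.18, 1.28 and -0.38, although *CRIM1* was not past the threshold when treated replicate 2 was left out as well (-0.36, limma adjusted *p* = 0.0983). In H146 the 3 higher members and the 1 lower member were the same as before. The lines then differed in 6 members, 2 with a higher and 4 with a lower response in H146, beside 30.8% and 25.5% of all genes. These left out *AMOTL1* (0.19, limma adjusted *p* = 0.642) and took in *AJUBA* (-1.38, limma adjusted *p* = 0.00224), *NUAK2* (-0.89, limma adjusted *p* = 0.00777) and *PTPN14* (-0.67, limma adjusted *p* = 0.0343). *PTPN14* was at most 0.505 TPM in H146, where log2(TPM + 1) understates its change. As a ratio of mean TPM it rose 1.45-fold in H82 and 2.91-fold in H146.

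**Figure D3:**
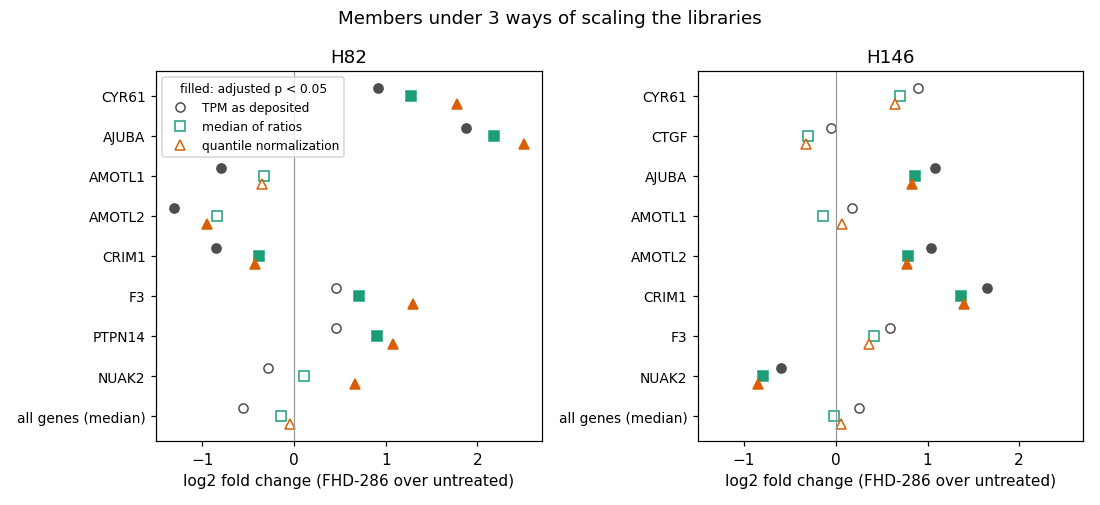
Log2 fold change with FHD-286 (horizontal) of each tested member and of the median of all genes, in H82 (left) and H146 (right), from TPM as deposited (circles), after the median of ratios (squares) and after quantile normalization (triangles); filled symbols have an adjusted *p* under 0.05. In H82 the scaled values lie to the right of the deposited ones for every member, and *NUAK2* crosses 0, from -0.28 to 0.10 and 0.66.

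TPM is a level per length, so members can be ranked within a group. Without the drug, the order of mean TPM in H82 was *AMOTL2*, *CRIM1*, *AMOTL1*, *PTPN14*, *NUAK2*, *CYR61*, *F3*, *AJUBA*, *ANKRD1* and *CTGF*. Neighbors whose libraries overlapped in that order were *CRIM1* and *AMOTL1*, *CYR61* and *F3*, and *F3* and *AJUBA*. In treated H82 the leading 4, *AMOTL2*, *PTPN14*, *CRIM1* and *AMOTL1*, had means of 13.2 to 14.2 TPM with overlapping libraries, and *AJUBA* followed them at 5.81 ± 2.20 TPM (SD, n = 3). Untreated H146 was led by *AMOTL1* at 73.4 ± 21.0 TPM (SD, n = 3), with no library near those of the next gene, *CRIM1*. Below it, *CRIM1*, *CTGF*, *AMOTL2* and *NUAK2* followed with each neighboring pair overlapping, and *PTPN14* was last. In treated H146 the order was *AMOTL1*, *CRIM1*, *AMOTL2*, *AJUBA*, *CTGF*, *CYR61*, *F3*, *NUAK2*, *PTPN14* and *ANKRD1*. No neighboring pair among the first 4 overlapped, and from *AJUBA* down to *NUAK2* each neighboring pair did.

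The co-activators and their DNA-binding partners were described beside the output genes. *YAP1* was at 0.579, 0.535 and 0.585 TPM in untreated H82 and at 1.94, 2.18 and 2.90 TPM in treated H82. In H146 it was at 0.245, 0.137 and 0.166 TPM untreated and at 0.471, 0.575, 0.937 and 0.588 TPM treated. Treated libraries were above untreated ones in both lines, and the level of *YAP1* RNA stayed under 3 TPM in all 13 libraries. *WWTR1* stood at 1.37, 1.85 and 1.87 TPM untreated and 2.76, 3.02 and 3.70 TPM treated in H82. In H146 *WWTR1* stood at 1.06, 1.28 and 1.07 TPM untreated and 5.97, 7.0, 5.39 and 6.13 TPM treated. The response of H146 minus that of H82 was 1.11 for *WWTR1* (limma adjusted *p* = 0.00113) and -0.61 for *YAP1* (limma adjusted *p* = 0.027), which reached 1 TPM only in the treated H82 libraries and was tested through them. With libraries scaled by the median of ratios, the first was 0.51 and missed the threshold (limma adjusted *p* = 0.0753). *YAP1* was at most 0.937 TPM in H146 and below the filter of that line, where log2(TPM + 1) understates its change. As a ratio of mean TPM, *YAP1* rose 4.13-fold in H82 and 3.51-fold in H146.

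Of the TEAD genes, *TEAD1* went from 51.4, 53.3 and 47.8 TPM to 7.37, 14.6 and 13.1 TPM in H82. It was at 34.1, 37.5 and 23.3 TPM untreated and 28.4, 31.1, 24.8 and 26.7 TPM treated in H146, where the groups overlapped. On the log2 scale *TEAD1* fell by 2.08 in H82 (limma adjusted *p* = 0.000609), and its response was higher by 1.92 in H146 (limma adjusted *p* = 0.000236). *TEAD2* went from 12.1, 8.79 and 9.75 TPM to 21.2, 41.6 and 39.2 TPM in H82, and from 0.130, 0.161 and 0.146 TPM to 2.47, 2.00, 5.83 and 5.31 TPM in H146. It was past the threshold as higher in both lines, but in H146 it passed the filter only through its treated libraries. *TEAD3* fell by 0.91 in H82 (limma adjusted *p* = 0.00582), which the median of ratios put at -0.45 (limma adjusted *p* = 0.0888), and it was at -0.36 in H146 (limma adjusted *p* = 0.128). *TEAD4*, at 44.7 to 66.6 TPM in H82 and 57.0 to 74.4 TPM in H146, was not past the threshold in either line, although the median of ratios put it at 0.75 in H82 (limma adjusted *p* = 0.00345). Of the 6 upstream genes, 3 were thus higher and 2 lower in H82, with a median of 0.44 on the log2 scale, against 4 higher and 1 lower after that scaling. In H146, 2 of 5 tested were higher and none lower, with a median of 0.21, whereas 2 were higher and 2 lower under the median of ratios. Of all genes tested, 13.1% were higher and 45.5% lower in H82, and 32.5% higher and 15.5% lower in H146. Under the median of ratios these shares were 24.2% and 32.9% in H82, and 21.3% and 25.1% in H146.

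Of 20 other published YAP and TAZ targets, 12 were tested in H82, of which 5 were higher and 1 was lower, and the median of their log2 fold changes was 0.44, beside -0.56 over all genes. The largest change was in *CCND1*, which encodes cyclin D1 of the G1 phase, from 0.238, 0.376 and 0.381 TPM to 4.45, 14.3 and 17.8 TPM (log2 fold change 3.13, limma adjusted *p* = 0.00128), so it too passed the filter only through its treated libraries. The 1 lower gene was *ARHGEF17*, at -0.99 (limma adjusted *p* = 0.00353). In H146, 11 were tested, of which 6 were higher and 1 was lower, with a median of 0.78 beside 0.25 over all genes. *ASAP1*, an Arf GTPase-activating protein, went from 25.1, 26.1 and 15.5 TPM to 85.6, 72.6, 95.9 and 102 TPM (log2 fold change 1.98, limma adjusted *p* = 0.000186). *GADD45A*, a stress gene of growth arrest, fell by 2.06 (limma adjusted *p* = 0.0148). The shares over all genes tested were 13.1% higher and 45.5% lower in H82, and 32.5% higher and 15.5% lower in H146.

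Of 16 Hippo pathway regulators, 14 were tested in each line. In H82, 1 was higher and 8 were lower, and the median of their log2 fold changes was -0.59, beside the -0.56 of all genes. Under the median of ratios 3 were higher and 3 lower in H82. The only higher gene was *WWC1*, the scaffold KIBRA, at 0.73 (limma adjusted *p* = 0.0117), and the lowest was *TAOK1*, a kinase upstream of MST, which went from 47.2, 56.8 and 46.6 TPM to 7.40, 13.9 and 14.7 TPM. In H146, 7 were higher and none lower, with a median of 0.47, and 6 were higher and none lower under the median of ratios. *VGLL3*, which encodes a TEAD cofactor, rose from 3.0, 3.33 and 2.20 TPM to 36.5, 32.1, 44.7 and 48.1 TPM there (log2 fold change 3.42, limma adjusted *p* = 8.33e-06), and it was at most 0.109 TPM in H82. *WWC1* had the lowest value in H146, at -0.03 (limma adjusted *p* = 0.879). Beside these counts, 13.1% of all genes tested were higher and 45.5% lower in H82, and 32.5% and 15.5% in H146. Under the median of ratios the shares were 24.2% and 32.9% in H82, and 21.3% and 25.1% in H146.

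Genes of actin and of SRF, a transcription factor of the cytoskeleton that shares targets with YAP, were counted from a list of 14. In H82, 10 were tested, of which 1 was higher and 2 were lower, with a median of -0.33, and under the median of ratios 3 were higher and 2 lower, with a median of 0.10. The shares over all genes are those given above for each scaling. *ZYX*, which encodes the focal adhesion protein zyxin, was at 1.24 (limma adjusted *p* = 0.00254) and *TAGLN*, or transgelin, at -2.12 (limma adjusted *p* = 0.00286). In H146, 13 were tested, of which 3 were higher and 7 lower, with a median of -0.78, or 2 and 7 with a median of -1.09 under the median of ratios. *EGR1*, an immediate early gene, was at 1.57 (limma adjusted *p* = 0.044), with 25.0 and 18.9 TPM in treated replicates 3 and 4 and at most 5.09 TPM in the other H146 libraries. *ACTG2*, a smooth muscle actin, fell by 3.57 (limma adjusted *p* = 3.32e-06), and it passed the filter only through its untreated libraries. The same held for *ACTA2* in H146, while *CNN1* had fewer than 3 untreated libraries at 1 TPM there.

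**Figure D4:**
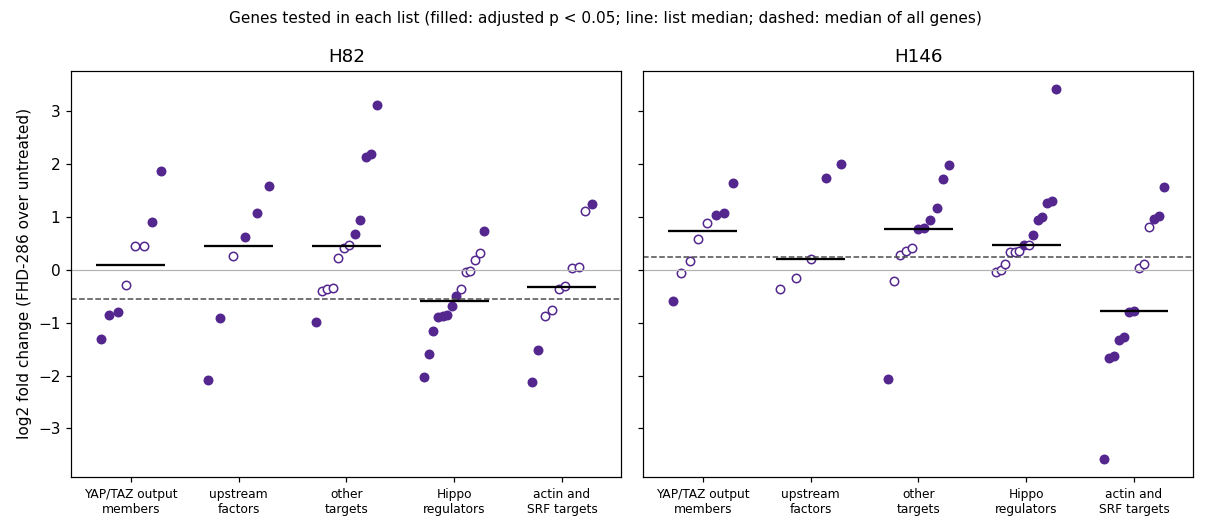
Log2 fold change with FHD-286 (vertical) of every tested gene of 5 lists, in H82 (left) and H146 (right); filled points have an adjusted *p* under 0.05, the bar is the median of the list and the dashed line the median of all genes tested. The points of the 8 output genes tested in each line lie on both sides of the dashed line in both lines, and the Hippo regulators are centered near it in H82.

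Lists of cell type markers moved with the drug as well, and their part in the results above was not tested. Untreated H146 itself held the epithelial markers at high levels. The sum of 5 epithelial markers went from between 1.57 and 3.61 TPM in untreated H82 to between 9.17 and 114 TPM in treated H82, with the highest value in treated replicate 2, and 2 of the 4 tested were higher. Of these 4, all but *EPCAM* passed the filter only through treated libraries. In H146 the epithelial sum went from between 2234 and 2404 TPM to between 575 and 647 TPM, with 4 of 5 lower. The sum of 7 fibroblast markers, a cell type that uses the output genes strongly, went from between 3.16 and 3.57 TPM to between 7.98 and 35.5 TPM in H82, where 3 of 4 tested were higher, *THY1* was lower (log2 fold change -1.14) and *COL3A1* was listed at 0 in all untreated libraries. In that H82 test *COL1A2* and *DCN* passed the filter only through treated libraries and *THY1* only through untreated ones. *LUM* reached 1 TPM in untreated replicate 3 alone among untreated libraries. In H146 the fibroblast sum was at 30.6 to 45.0 TPM over all libraries, with members going both ways, as 2 of 4 tested were higher, led by *COL3A1* from 0.213 to 7.44 TPM in the mean, and *THY1* was lower, from 26.8 to 12.9 TPM. *COL3A1* passed the H146 filter only through treated libraries. Endothelial markers summed to at most 2.75 TPM in any library, with *CDH5* at or near 0 in all, and leukocyte markers to at most 17.9 TPM, with *CD3E* listed at 0 in all H82 libraries. The neuroendocrine markers that define these lines were at 1 TPM or more, all 6 of them, in every library, and summed to between 850 and 987 TPM in untreated H82, 1134 and 1472 TPM in treated H82, 3374 and 3856 TPM in untreated H146 and 2549 and 2722 TPM in treated H146. The sum in H82 hides opposite changes, with 2 of 6 higher and 2 lower. There *CHGA* went from 143 to 32.6 TPM in the mean, and *INSM1* from 14.4 to 121 TPM with 296 TPM in treated replicate 2. *SYP* (202 to 46.8 TPM) and *UCHL1* (412 to 896 TPM), named after their values were seen, were the other called members. Under the median of ratios 4 of the 6 were higher and 2 lower in H82. In H146, 3 of 6 were lower, against 4 under the median of ratios. Counts of the fibroblast and epithelial lists were the same under that scaling. For all marker lists, the shares over all genes tested were 13.1% higher and 45.5% lower in H82, and 32.5% higher and 15.5% lower in H146. With the median of ratios they were 24.2% and 32.9% in H82, and 21.3% and 25.1% in H146.

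The genes most like *CYR61* and *AJUBA* over the 13 libraries were found by the smallest root mean square difference of log2(TPM + 1), each gene centered on its own mean, among 24365 genes. For *CYR61* they were *AC011753.3* (0.26), *MCIDAS* (0.27) and *ANKS6* (0.28), where *CYR61* itself varied by 0.60 about its mean. For *AJUBA* they were *PSMA7* (0.23), *SNX17* (0.25) and *PREP* (0.25), where *AJUBA* itself varied by 0.79. *SNX17*, for example, was at 41.1 to 45.2 TPM in untreated H82 and 118 to 145 TPM in treated H82, and at 54.9 to 65.1 TPM and 92.1 to 199 TPM in H146. These libraries share the drug, the 2 lines and the scaling, so the likeness is a description only.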

How the data were processed

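RNA was sequenced in 13 libraries of H82 and H146 (SCLC), grouped by the sample labels. Per the study's methods the authors aligned and counted reads with STAR (hg38, GENCODE release 28) and compared groups with DESeq2; the submitters' processing notes name Trim Galore 0.4.4. The authors deposited TPM, 1 table per line. How gene length was taken is not given in the sources used here, and depth is unknown. The members and gene lists were chosen with earlier results of these data known.

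Genes at 1 TPM or more in at least 3 libraries of a line were tested on log2(TPM + 1) in R 4.3.3 with limma 3.58.1 (lmFit, eBayes with trend, two-sided, Benjamini-Hochberg over all genes tested, threshold 0.05). Members below the filter had an exact permutation test of the mean. The method was tested on simulated data. Genes named are the 10 members, *YAP1*, *WWTR1* and the TEAD genes, the highest and lowest gene of each accompanying list in each line, and the 3 genes nearest to *CYR61* and *AJUBA*. *LATS2* is in 2 lists.

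Alternatives were a pseudocount of 0.1, no filter, the median of ratios, quantile normalization, no mitochondrially encoded genes, a replicate block and each library left out. The median of ratios without H82 treated replicate 2 was added after seeing the data. Gene positions are of GENCODE release 44 (hg38), and upstream sequences are of RefSeq (GRCh38.p14). Python 3.11.15 with pandas 2.3.3 and scipy 1.17.1 was used.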

Additional observations from a re-analysis of the deposited data

Results flagged for a closer look

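The level of *AMOTL2* in H146 treated replicate 2, 8.77 TPM, lay far from the other treated H146 libraries by Dixon's test for a single distant value. Of the members' groups, 10 were of a size this test takes, and chance marks about 1 in 20 groups. Without that library *AMOTL2* was still higher in H146.

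The response differed between the lines, by the interaction in limma over all 13 libraries, for *CTGF* (-1.16, H146 minus H82), *AMOTL1* (0.97), *AMOTL2* (2.35) and *CRIM1* (2.50). For *CTGF* the H82 side is a rise from libraries listed at 0, and for *AMOTL1* the difference was not past the threshold under the median of ratios (0.19).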

How the results depend on the processing

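The members' counts in H82 depended on the scaling and on single libraries. The count of higher members, 2 as reported, was 4 under the median of ratios, 5 with quantile normalization, where 25.6% of all genes were higher and 28.1% lower, and 1 to 3 with single libraries left out. The count of lower members, 3 as reported, was 1 under the median of ratios, 0 when H82 treated replicate 2 was left out as well, and 1 to 3 with single libraries left out. In H146 the count of higher members, 3 as reported, ranged from 3 to 5 with single libraries left out, and that of lower members, 1 as reported, was 0 with no filter, 0 with the replicate block and 0 to 1 with single libraries left out. The share of all genes that were lower in H146 was 7.57% with no filter and 12.1% with the block. With single libraries left out, 9.52% to 19.3% of all genes were higher and 38.5% to 50.4% lower in H82. In H146 these shares were 22.5% to 38.6% and 11.3% to 19.1%, with 38.6% without treated replicate 2, which gave the count of 5. Members that differed between the lines numbered 4 as reported, 8 with quantile normalization, where 50.9% of all genes differed, and 3 to 4 with single libraries left out, where 53.4% to 61.3% of all genes differed. The count of members past 0.05 below the filter, 1 as reported, was 0 to 1 with single libraries left out, where fewer libraries raise the smallest *p* that can be had. The cause was not tested.

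Signs turned only for values not past the threshold as reported. *NUAK2* in H82 was 0.10 under the median of ratios, 0.66 with quantile normalization and 0.011 with the median of ratios and no treated replicate 2, and *AMOTL1* in H146 was -0.14 under the median of ratios. Of the differences between lines, *CYR61* was 0.15 with a pseudocount of 0.1 and 0.062 without mitochondrial genes, *F3* was -0.33 under the median of ratios, -1.05 with quantile normalization and -0.32 with the median of ratios and no H82 treated replicate 2, and *PTPN14* was 0.59 with a pseudocount of 0.1 and 0.0062 without mitochondrial genes. With single libraries left out, the ranges that spanned 0 were -0.17 to 0.10 for *CTGF*, -0.072 to 0.35 for *AMOTL1* and -0.18 to 0.057 for *ANKRD1* in H146, and -0.33 to 0.18 for *CYR61*, -0.072 to 0.28 for *F3* and -0.34 to 0.057 for *PTPN14* between the lines. Of 426 single-gene values, 344 kept their direction and side of the threshold, 21 newly passed it, 36 no longer did and 25 changed sign.

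Replicate numbers did not pair the libraries, since deviations of same-numbered libraries correlated at -0.11 to 0.03. With the number as a replicate block, the H82 counts were 2 higher and 2 lower, *AMOTL1* being lost (limma adjusted *p* = 0.0543), and *NUAK2* was lost in H146 (limma adjusted *p* = 0.0732).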
